A study of Mus musculus with 2 samples.

Results

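The levels of 6 genes of lymphocyte and myeloid surface antigens were followed in mouse spleen cells: Ly6a, Ly6c1, Ly6c2, Ly6d, Ly6e and Thy1. They were taken by symbol, and all 6 were found in both count tables, among 30457 genes listed in either table. All cells were from spleens of female C57BL/6J mice bearing Lewis lung carcinoma, a mouse tumour cell line, under the skin. The mice, 10 weeks old at injection, received 200 µg of an antibody against CD4 on days 5 and 9, and their spleens were taken on day 12. Spleen cells of 3 mice were pooled, depleted of red cells with ACK lysis buffer, frozen and thawed, and 2000 cells were loaded on 1 BD Rhapsody cartridge, which traps single cells in nanowells with barcoded beads. The beads were then halved between TAS-Seq, which tails the cDNA with cytidines by terminal transferase and a chain terminator, and the BD WTA kit, which amplifies by random priming. Each method therefore gave 1 library from the same pool of tumour-bearing, antibody-treated mice. No untreated or tumour-free group was analysed here, so neither the tumour nor the antibody can be compared with anything.

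The Ly6 proteins are small surface proteins of the Ly6/uPAR family. They fold into a compact disulphide-rich domain and are held in the outer leaflet of the membrane by a glycosylphosphatidylinositol (GPI) anchor. In mouse many are encoded side by side on chromosome 15, and several were first known as antigens that mark lymphocyte and myeloid subsets. Thy1 (CD90) is also GPI-anchored but has an immunoglobulin fold, and it is the classical surface marker of mouse T cells. Ly6a is Sca-1, known from haematopoietic stem cells and activated lymphocytes. Ly6c1 and Ly6c2 together encode the Ly6C antigen of inflammatory monocytes, NK cells and memory CD8 T cells. Ly6d marks lymphoid progenitors committed to the B lineage, and Ly6e (TSA-1) is an interferon-inducible protein.

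In GENCODE release M21 on build GRCm38, the Ly6 genes are neighbours on chromosome 15. Ly6d runs from 74762056 to 74763620, Ly6e from 74955051 to 74959905, Ly6a from 74994877 to 74998031, Ly6c1 from 75044018 to 75048830 and Ly6c2 from 75108158 to 75111970. Thy1 runs from 44043384 to 44048579 on chromosome 9. Ly6e and Thy1 are on the forward strand and the other 4 genes on the reverse strand. Ly6c1 and Ly6c2 are near copies, which bears on how far their reads can be told apart. Their coding sequences both measure 396 bases, differ at 9 of them (97.7% identity) and share an unbroken run of 188 bases. The first 300 coding bases of each carry 7 of the differences, given in capitals. They lie in exons between 75045498 and 75048511 for Ly6c1 and between 75108639 and 75111667 for Ly6c2.
Ly6c1: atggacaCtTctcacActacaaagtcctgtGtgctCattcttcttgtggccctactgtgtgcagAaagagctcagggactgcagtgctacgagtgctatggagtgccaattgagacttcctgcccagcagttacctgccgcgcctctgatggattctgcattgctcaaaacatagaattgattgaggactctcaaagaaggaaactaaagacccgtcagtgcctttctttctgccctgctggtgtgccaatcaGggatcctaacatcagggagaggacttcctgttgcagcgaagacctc
Ly6c2: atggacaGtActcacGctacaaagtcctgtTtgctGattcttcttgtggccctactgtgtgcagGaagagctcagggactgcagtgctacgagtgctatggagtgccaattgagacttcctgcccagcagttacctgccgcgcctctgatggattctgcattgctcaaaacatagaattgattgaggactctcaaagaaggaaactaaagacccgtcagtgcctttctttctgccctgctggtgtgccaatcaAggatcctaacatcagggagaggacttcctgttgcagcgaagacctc

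Over all annotated transcripts, 46.8% of the 31-base words of Ly6c1 occur in another gene, and 581 of its 1758 words occur in Ly6c2. For Ly6c2 and Ly6a the shares found in another gene are 23.7% and 31.9%, and Ly6a has 276 of its 1259 words in common with Ly6c1. No word of Ly6d is shared, and Ly6e (0.422%) and Thy1 (1.13%) share few. A read that fell wholly inside a shared stretch could not be assigned to 1 gene from its sequence. The division of reads among Ly6a, Ly6c1 and Ly6c2 is therefore uncertain. The paper describes TAS-Seq libraries enriched for the cDNA end that carries the cell barcode, so reads need not spread evenly over a transcript. How many reads fell in shared or coding stretches was not counted.

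The RefSeq promoter table (GRCm38.p6) held 2 of the 6 genes, Ly6c1 and Ly6c2. They are given because the levels of this pair parted between T-cell classes. The 250 bases before each start site were searched on both strands for the ISRE of interferon-induced genes, TGTGGT (a RUNX core) and AGGTGTGA (a T-box core). Of these only the RUNX letters were present, once, in Ly6c2, as ACCACA starting 179 bases before the start site, and they are in capitals. Over all 32851 promoter windows of this length, 14% held the RUNX letters, 2.98% the ISRE letters and 1.12% the T-box letters.
Ly6c1 (chr15:75048838-75049087, reverse strand): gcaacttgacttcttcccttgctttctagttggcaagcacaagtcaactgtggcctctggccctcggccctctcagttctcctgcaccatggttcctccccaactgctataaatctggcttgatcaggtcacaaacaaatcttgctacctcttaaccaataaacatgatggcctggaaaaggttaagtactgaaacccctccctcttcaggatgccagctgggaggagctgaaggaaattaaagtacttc
Ly6c2 (chr15:75111972-75112221, reverse strand): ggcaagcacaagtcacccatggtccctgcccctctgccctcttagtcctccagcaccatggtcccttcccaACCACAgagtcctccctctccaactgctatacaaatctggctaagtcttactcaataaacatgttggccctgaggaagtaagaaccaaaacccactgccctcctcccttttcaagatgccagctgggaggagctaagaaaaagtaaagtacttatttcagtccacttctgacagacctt

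The TAS-Seq table held 736 barcodes and 38656790 reads, and the BD WTA count matrix 716 barcodes and 31608259 reads, with no barcode in both. After the study's filters (at least 500 genes and at most 25% mitochondrial reads) 732 and 708 cells remained, with medians of 46557 and 38426 reads per cell. Levels are given as pooled CPM, the reads of a gene per 1000000 reads of all genes, summed over the cells of a class. With 1 library per method there is no spread between replicates and no test, so brackets give exact 95% Poisson or Clopper-Pearson intervals. These cover counting error only, and since reads were counted without molecular identifiers they are too narrow. Differences of at least 2-fold are counted, with the share of all genes that reached the same fold beside the count.

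Cells were classed by markers that include none of the 6 genes. A cell had to show 3 or more markers of a list, each with at least 5 reads, and at most 1 marker of any other list. This gave 389 TAS-Seq and 338 BD WTA cells that were B-like (Cd79a, Ms4a1, Pax5 and others), 112 and 103 CD8-like T cells, 61 and 68 CD4-like T cells, 8 and 18 NK-like cells and 18 and 22 myeloid-like cells, called B, CD8, CD4, NK and myeloid cells below. A further 74 and 76 cells had T-cell markers without reads of Cd4 or Cd8 past the limit or with both, 53 and 37 carried markers of several lists, and 17 and 46 had too few. Cells at the minimum of 3 markers ranged from 4 of 389 (TAS-Seq B cells) to 27 of 103 (BD WTA CD8 cells). Summed B markers had a median over cells of 95.4 CPM in TAS-Seq CD8 cells and 86.9 CPM in CD4 cells against 0 CPM in both BD WTA classes, while their own T markers reached medians of 4139 to 6075 CPM. No cell showed 3 platelet markers, and 1 to 2 cells per library showed 3 erythroid markers.

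Over all cells, 1 of the 6 genes differed at least 2-fold between the methods, where 15.9% of 10039 genes at 10 CPM or more did. That gene was Ly6d, with 834 CPM (825-843) in TAS-Seq and 347 CPM (340-353) in BD WTA, a log2 ratio of 1.27. The others stayed within 2-fold. Ly6a was at 296 CPM in TAS-Seq and 542 CPM in BD WTA (log2 ratio -0.87), and Ly6e at 1494 and 2109 CPM (-0.50). Thy1 was at 606 and 445 CPM (0.45), Ly6c1 at 73.4 and 61.1 CPM (0.27) and Ly6c2 at 252 and 267 CPM (-0.09). The median log2 ratio over all genes was 0.10, so the 6 genes, with a median of 0.09, lay on both sides of the centre. Within classes Ly6c2, Ly6d and Thy1 were at least 2-fold apart between the methods in B cells, where 21% of genes were. In CD8 cells (36.3% of genes) none of the 5 genes above 10 CPM was, and in CD4 cells (46.5%) only Ly6d was, from 59 and 2 reads. The small NK class (69%) and myeloid class (64.1%) differed more, and their values are given gene by gene.

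Across cell classes the genes fell into a group highest in B cells (Ly6a, Ly6d, Ly6e, although TAS-Seq Ly6a was highest in myeloid cells with markers at 10 reads), a T-cell gene (Thy1) and the Ly6C pair, which was low in B cells. Between B and CD8 cells all 6 genes differed at least 2-fold the same way in both libraries, 3 higher and 3 lower in B cells. Of 8980 genes 18.6% did so, 13.4% higher and 5.23% lower in B cells. Between CD4 and CD8 cells 2 of the 5 that passed the level limit of 10 CPM did, Ly6a higher (4.38% of genes) and Ly6c2 lower in CD4 cells (3.21%), where 7.59% of genes did so either way. Between NK and CD8 cells 2 of 5 did, Ly6a and Thy1, both lower in NK cells. There 29.8% of genes did so, 11.6% higher and 18.2% lower. The Ly6a levels of NK cells rested on 4 reads and 1 read, and Ly6a was no longer called without the cell with most reads of each gene in each group, which left 1, or at 20000 reads per cell. At that depth Ly6c1 and Ly6c2 were called higher in NK cells, and Ly6c1 was also with markers at 2 reads or read in thinned cells and at a 1.5-fold limit. With clusters of each library in place of the marker classes, the BD WTA log2 ratio of Ly6c1 became -0.44 in place of 0.93. The classes shared the CD8 cells as reference, so these 3 comparisons are not independent. CD4 cells were those present after the antibody against CD4. Their differences from CD8 cells cannot be told apart from which CD4 cells remained.

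**Figure D1:**
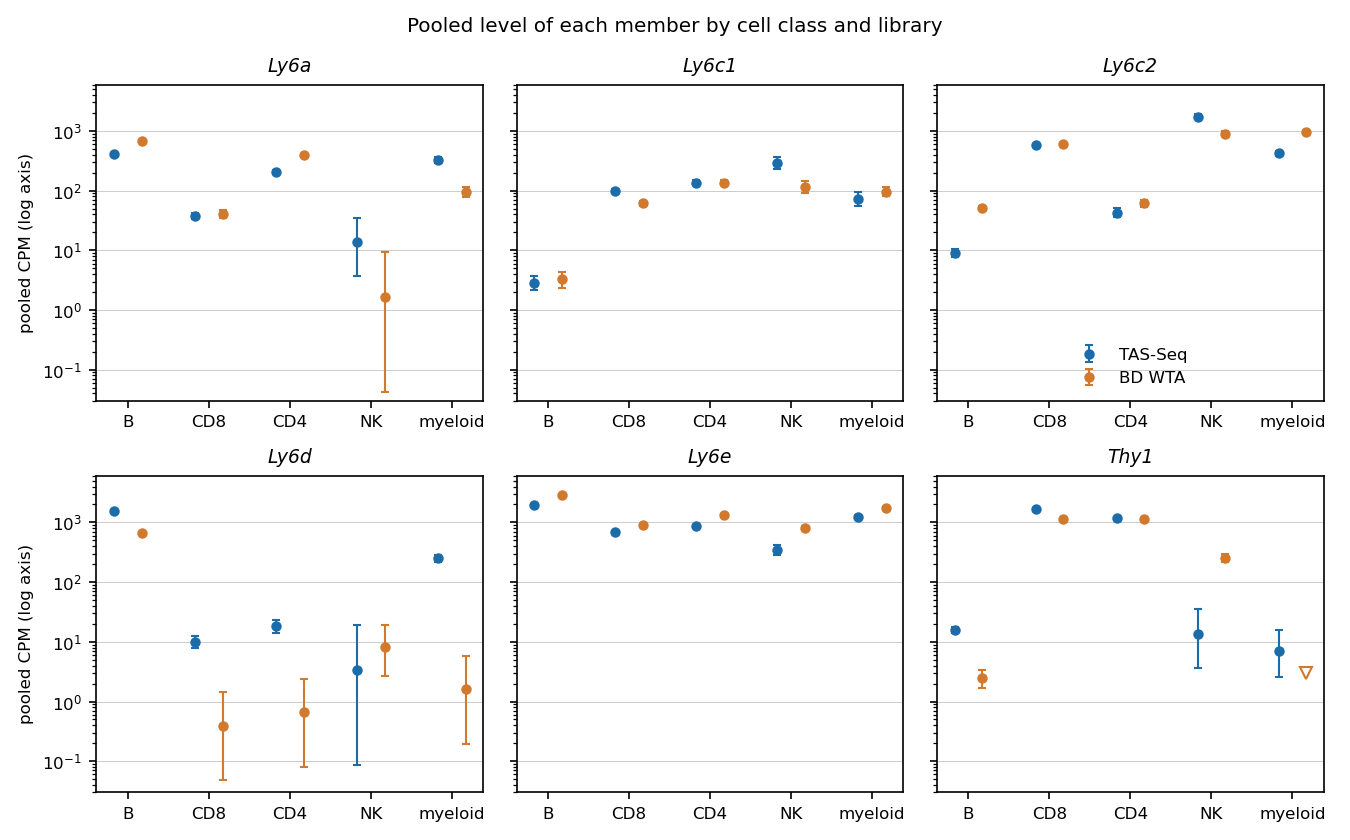
Pooled level of each gene in each cell class (CPM, log axis) for TAS-Seq (blue) and BD WTA (orange), with exact 95% Poisson intervals as bars and the upper limit of a count of 0 as an open triangle. Ly6a, Ly6d and Ly6e were highest in B cells in both libraries (Ly6a in TAS-Seq myeloid cells with markers at 10 reads), and Ly6c1 stood near 3 CPM in B cells but at 61.0 CPM or more in the other classes.

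Ly6d was read mainly in B cells, which held 29034 of its 32174 TAS-Seq reads and 9205 of 10917 BD WTA reads. They stood at 1536 CPM in TAS-Seq and at 664 CPM in BD WTA, and all other classes were below them. CD8 cells were at 9.97 CPM (7.80-12.6) in TAS-Seq and at 0.396 CPM in BD WTA, where just 2 reads were counted. CD4 cells were at 18.1 CPM in TAS-Seq, with 55.9% of the reads from 1 cell, and at 0.667 CPM in BD WTA, again 2 reads. NK cells gave 1 read in TAS-Seq and 5 reads, all from 1 cell, in BD WTA. Ly6d was read in most B cells of both libraries. After every cell was thinned to 20000 reads, 91.5% of TAS-Seq B cells (88.2-94.1%) and 76.0% of BD WTA B cells (70.8-80.6%) had a read. In CD8 cells, which should lack the gene, the shares were 16.4% and 2%, from median depths of 57733 and 46120 reads before thinning, and the median CD8 cell had 0 CPM in both libraries. The few-read signal in T cells and the summed B markers in T cells were both higher in TAS-Seq, and the part of one in the other was not tested.

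The exception to the B-cell pattern of Ly6d was the TAS-Seq myeloid class, at 249 CPM against 1.62 CPM in BD WTA. Of its 18 cells, 2 supplied 206 of the 210 reads. Both had 3 or more of the 5 plasmacytoid dendritic markers (such as Siglech and Bst2), and no BD WTA myeloid cell did. Their Ly6d levels were 621 and 2121 CPM, and they also carried Ly6a (1939 and 831 CPM), Ly6c2 (2410 and 530 CPM) and Ly6e (2710 and 3869 CPM). Without reads from such a cell the BD WTA class cannot be compared for them.

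Ly6a was present in part of the B cells. Pooled levels were 409 CPM in TAS-Seq and 674 CPM in BD WTA, but the median B cell had 27.5 and 0 CPM. Cells with at least 5 reads made up 43.7% and 45.3% of B cells, and among these the median was 728 and 906 CPM. CD4 cells were at 207 CPM (192-224) and 389 CPM (367-412), with at least 5 reads in 32.8% and 30.9% of cells. The T cells without a single Cd4 or Cd8 call were at 252 CPM (235-269) in TAS-Seq, above the CD4 cells. In BD WTA they were at 225 CPM (208-242), below the CD4 cells. CD8 cells were at 38.0 CPM and 40.8 CPM, with at least 5 reads in 6 of 112 and 7 of 103 cells. CD4 cells thus exceeded CD8 cells by a log2 ratio of 2.45 in TAS-Seq and 3.25 in BD WTA. These were the CD4 cells present after the antibody against CD4. NK cells had 4 reads from 1 of 8 cells and 1 read from 1 of 18 cells. Myeloid levels (331 and 94.8 CPM) rested on 3 and 2 cells with at least 5 reads.

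Ly6e was the gene read most evenly. B cells were at 1973 and 2843 CPM, and 97.4% and 98.2% of them had at least 5 reads. The other classes followed, from myeloid cells at 1231 and 1753 CPM through CD4 cells at 876 and 1329 CPM and CD8 cells at 699 and 890 CPM to NK cells at 350 CPM (286-425) and 811 CPM (741-887). The order of classes was the same in both libraries, although in BD WTA the NK and CD8 intervals overlapped (864-916 CPM for CD8 cells). B cells exceeded CD8 cells by log2 ratios of 1.5 and 1.68.

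Thy1 gave the reverse pattern. CD8 cells were at 1704 CPM (1674-1734) in TAS-Seq and 1140 CPM (1111-1170) in BD WTA, and CD4 cells at 1173 CPM (1137-1211) and 1159 CPM (1121-1198). The remaining T cells were at 1128 CPM (1093-1164) in TAS-Seq, overlapping the CD4 interval, and at 971 CPM (937-1007) in BD WTA, below both classes. B cells held 15.8 and 2.45 CPM, and myeloid cells 6 reads in TAS-Seq and none in BD WTA, for which the upper limit is 2.99 CPM. CD8 exceeded CD4 cells in TAS-Seq by 1.45-fold, and in BD WTA the intervals of both classes overlapped. NK cells differed between the libraries, with 13.6 CPM (4 reads in 8 cells) in TAS-Seq and 256 CPM in BD WTA, where 3 of 18 cells held all 154 reads. At 20000 reads per cell, 97.3% of TAS-Seq CD8 cells (92.2-99.4%) and 85.0% of BD WTA CD8 cells (76.5-91.4%) had a Thy1 read. In B cells, which should lack it, the shares were 17.2% and 1.6%.

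**Figure D2:**
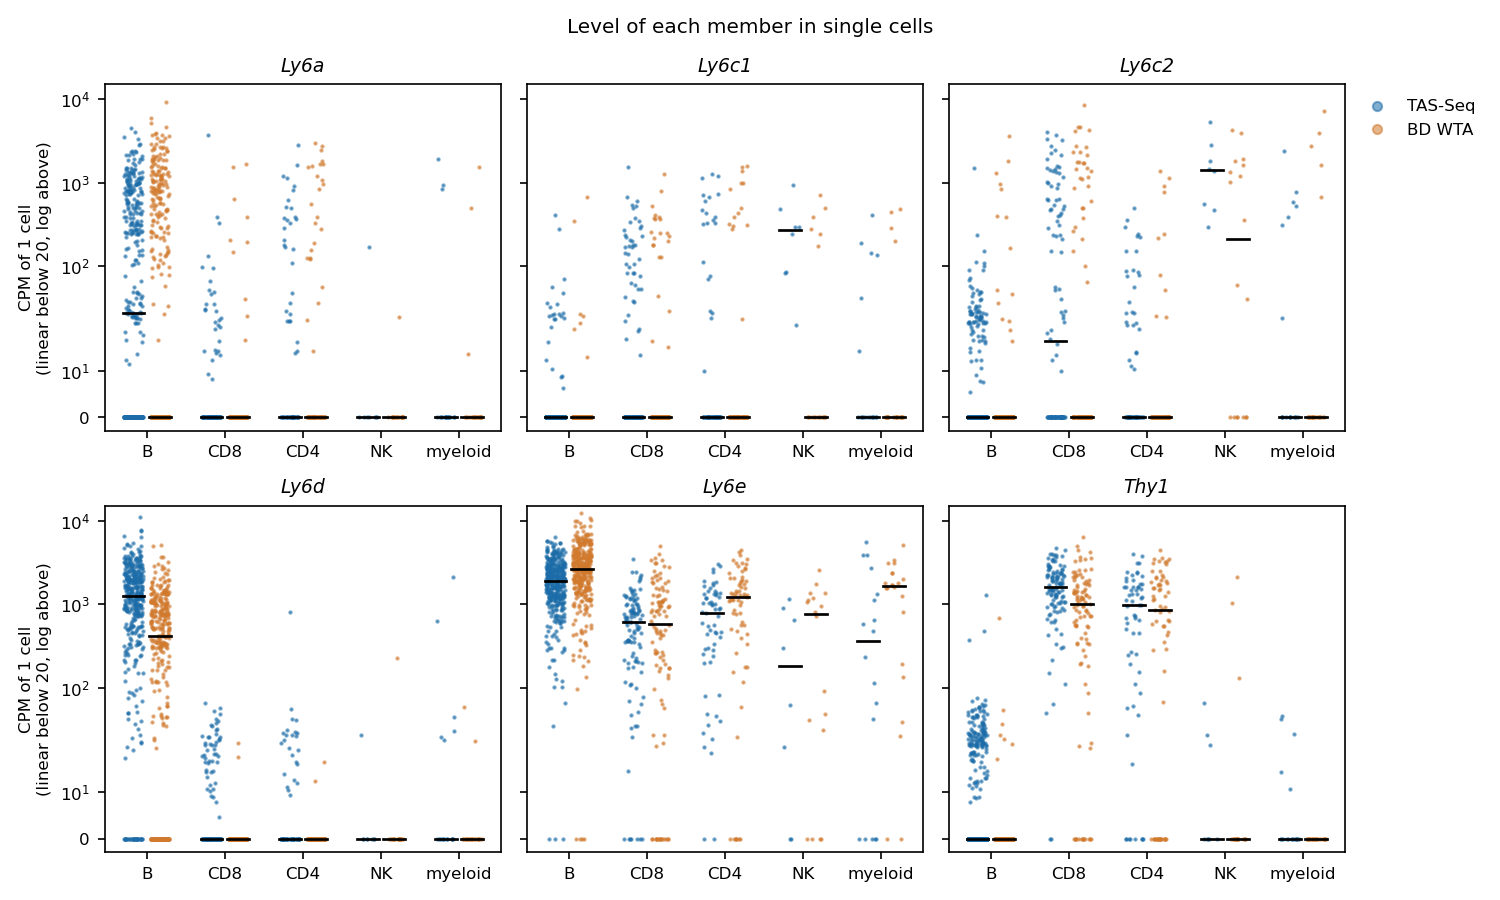
CPM of each gene in single cells (1 point per cell, linear below 20 CPM and log above) by class for TAS-Seq (blue) and BD WTA (orange), with black lines at the median. The median B cell had 27.5 and 0 CPM of Ly6a, and B cells with at least 5 reads had medians of 728 and 906 CPM. At least 5 reads of Ly6e were found in 77.7% or more of the B, CD8 and CD4 cells of each library.

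Ly6c2 was carried by NK, CD8 and myeloid cells. NK cells were at 1742 CPM (1594-1900) in TAS-Seq, where all 8 cells had at least 5 reads, and at 906 CPM (832-985) in BD WTA, where 9 of 18 did. CD8 cells were at 588 CPM (570-606) and 605 CPM (583-627), with at least 5 reads in 39.3% and 30.1% of cells. Myeloid cells were at 422 and 966 CPM, the latter overlapping the NK interval at 912-1023 CPM. CD4 cells were far lower, at 42.7 and 61.0 CPM, log2 ratios of -3.78 and -3.31 to CD8 cells. With clusters in place of the marker classes the log2 ratios were -2.16 and -0.40, so the call was lost in BD WTA. Clusters named CD4 held 17 of the 61 TAS-Seq and 37 of the 68 BD WTA CD4 cells, and those named CD8 held 64 of 112 and 53 of 103 CD8 cells. B cells were at 9.15 and 51.4 CPM. In BD WTA 1 cell supplied 428 of the 712 B-cell reads, and that cell had at least 4 plasma-cell markers and 7777 reads of Jchain, the joining chain of secreted immunoglobulin.

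Ly6c1 was spread over more classes. In TAS-Seq the order was NK cells (293 CPM, 234-361), CD4 cells (135 CPM, 123-149), CD8 cells (99.7 CPM, 92.6-107) and myeloid cells (72.5 CPM, 55.4-93.1), the intervals of the last pair overlapping. In BD WTA CD4 cells (135 CPM, 122-149), NK cells (116 CPM, 90.5-147) and myeloid cells (96.5 CPM, 79.9-115) overlapped in sequence, and CD8 cells were at 61.0 CPM (54.4-68.2). The T cells without a single Cd4 or Cd8 call were at 217 and 244 CPM. B cells stood at 2.86 and 3.25 CPM. Ly6a, with which Ly6c1 shares 276 words, was at 409 and 674 CPM in the same B cells.

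The split of reads within the Ly6C pair turned over between the CD8 and CD4 cells of the marker classes. The shares are of reads as assigned in the tables, and how shared reads were divided is not known, so a share is compared between classes and not read as a ratio of the transcripts. CD8 cells gave 720 Ly6c1 and 4243 Ly6c2 reads in TAS-Seq, a Ly6c1 share of 14.5% (13.5-15.5%), and 308 and 3052 reads in BD WTA, a share of 9.17% (8.21-10.2%). CD4 cells gave 441 and 139 reads in TAS-Seq, a share of 76.0% (72.3-79.5%), and 405 and 183 in BD WTA, a share of 68.9% (65.0-72.6%). With the marker classes, the interval of the CD4 share lay above that of the CD8 share in each library. These were CD4 cells present after the antibody against CD4. With clusters in place of those classes, the BD WTA log2 ratio of CD4 to CD8 cells was -0.39 for Ly6c1. That of Ly6c2, given above, was nearly equal, so the turn was not seen with clusters in BD WTA. NK cells (14.4% and 11.4%) and myeloid cells (14.7% and 9.08%) were on the side of CD8 cells. The T cells without a single Cd4 or Cd8 call lay between, at 53.5% (50.9-56.2%) and 44.2% (41.8-46.6%).

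With the marker classes the turn was also seen cell by cell. Of the cells with at least 5 reads of either gene, Ly6c1 exceeded Ly6c2 in 13 of 14 TAS-Seq CD4 cells and 11 of 14 in BD WTA, against 1 of 45 and 1 of 32 CD8 cells. It also did so in 26 of 33 and 16 of 23 T cells without a single Cd4 or Cd8 call, so this was not particular to CD4 cells. In TAS-Seq the share of Ly6c1 in single CD8 cells had a median of 12.9% with quartiles of 10.5% and 16.7%, while in BD WTA the quartiles were 0% and 17.6%. No NK or myeloid cell had at least 5 Ly6c1 reads without at least 5 Ly6c2 reads, whereas 4 and 8 CD4 cells did. Without the CD4 cell with most reads of the pair the share was 75.5% and 62.5%. How many of the minor gene's reads came from the shared stretches was not tested.

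**Figure D3:**
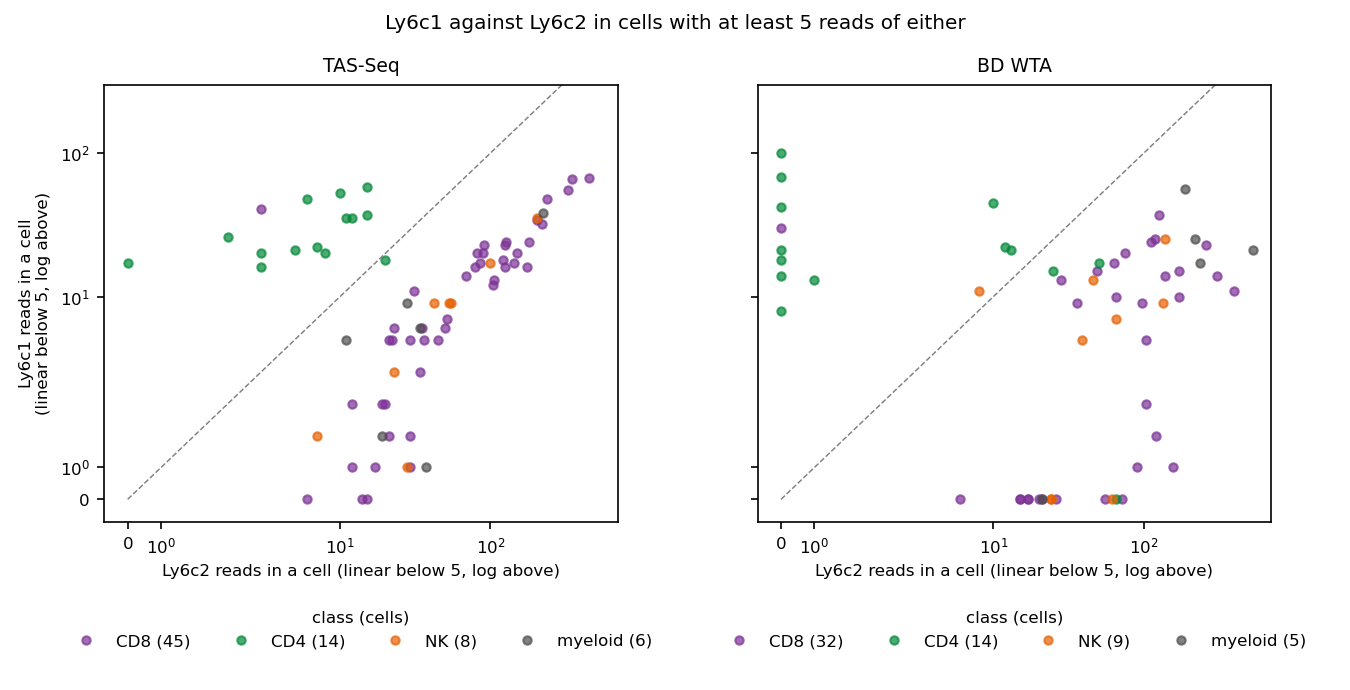
Reads of Ly6c1 against reads of Ly6c2 in single cells with at least 5 reads of either gene (axes linear below 5 and log above, dashed line at equal reads), coloured by class, with the number of cells in brackets. In TAS-Seq 13 of 14 CD4 cells lie above the line, against 1 of 45 CD8 cells.

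Within CD8 cells the Ly6C genes were higher in cells with memory markers than in cells with naive markers. Cells with 2 or more of Il2rb, Ccl5, Cxcr3, Eomes, Nkg7 and Cd44, and more of these than of the naive list (Lef1, Ccr7, Dapl1, Igfbp4, Tcf7 and 1 other), are called memory-like (17 and 7 cells), and the reverse naive-like (83 and 77 cells). Of the 5 genes that passed the level limit 3 were at least 2-fold higher in memory-like cells in both libraries, where 14.8% of 7557 genes were 2-fold apart, 4.53% higher and 10.3% lower. Ly6c2 was at 1387 CPM against 199 CPM in TAS-Seq and 1460 CPM against 377 CPM in BD WTA. At least 5 reads were found in 14 of 17 and 5 of 7 memory-like cells but in 25.3% and 24.7% of naive-like cells. Ly6c1 was at 234 CPM against 37.1 CPM, and at 178 CPM against 40.2 CPM. At least 5 Ly6c1 reads were found in 13 of 17 and 3 of 7 memory-like cells, against 13.3% and 11.7% of naive-like cells. In BD WTA the memory-like level rested on 75 reads, 49.3% of them from 1 cell. The 12 and 19 CD8 cells that were neither memory-like nor naive-like were near the memory-like level for Ly6c2, at 1442 and 1177 CPM, and held 230 and 94.7 CPM of Ly6c1. In BD WTA 1 of the 7 memory-like cells held 50% of the Ly6c2 reads, and without the top cell of each group the log2 ratio was 1.35 in place of 1.95.

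Ly6a was also higher in memory-like cells by pooled level, at 134 CPM against 18.6 CPM in TAS-Seq and 187 CPM against 33.3 CPM in BD WTA. That difference rested on single cells. In TAS-Seq 1 of the 17 memory-like cells held 89.8% of the reads, and leaving out the top cell of each group turned the log2 ratio from 2.85 to -0.09. In BD WTA the top cell held 77.2%, and the log2 ratio was 1.66 without it and its naive-like counterpart. Ly6e (log2 ratios of 0.65 and 0.67) and Thy1 (0.13 and -0.13) stayed under 2-fold in both libraries.

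B cells were divided in the same way by Cr2, Cd1d1, Dtx1, S1pr3, Cd9 and Fcrl5 against Fcer2a, Fcmr, Ccr7 and 1 other follicular marker, which gave 53 and 33 marginal zone-like and 286 and 222 follicular-like cells. Marginal zone B cells stand at the edge of the follicle and respond early to blood-borne antigen, while follicular B cells recirculate. Ly6a was higher in the marginal zone-like cells, at 641 CPM (617-666) against 318 CPM (309-329) in TAS-Seq and 1473 CPM (1424-1523) against 482 CPM (467-497) in BD WTA. It was the only 1 of 3 genes past the level limit to reach 2-fold in both libraries, where 8.92% of 8895 genes did, 3.58% higher and 5.34% lower. The TAS-Seq ratio of 2.01 stood at the limit, so the call was lost in several alternatives although the log2 ratio stayed at or above 0.47 in TAS-Seq and 1.22 in BD WTA. At least 5 reads were found in 77.4% (63.8-87.7%) against 35.7% (30.1-41.5%) of cells in TAS-Seq and in 32 of 33 cells against 37.8% (31.4-44.6%) in BD WTA. Ly6d was at 1994 CPM against 1401 CPM in TAS-Seq and 686 CPM against 663 CPM in BD WTA. Ly6e went slightly the other way, at 1725 CPM against 2059 CPM and 2132 CPM against 3110 CPM.

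**Figure D4:**
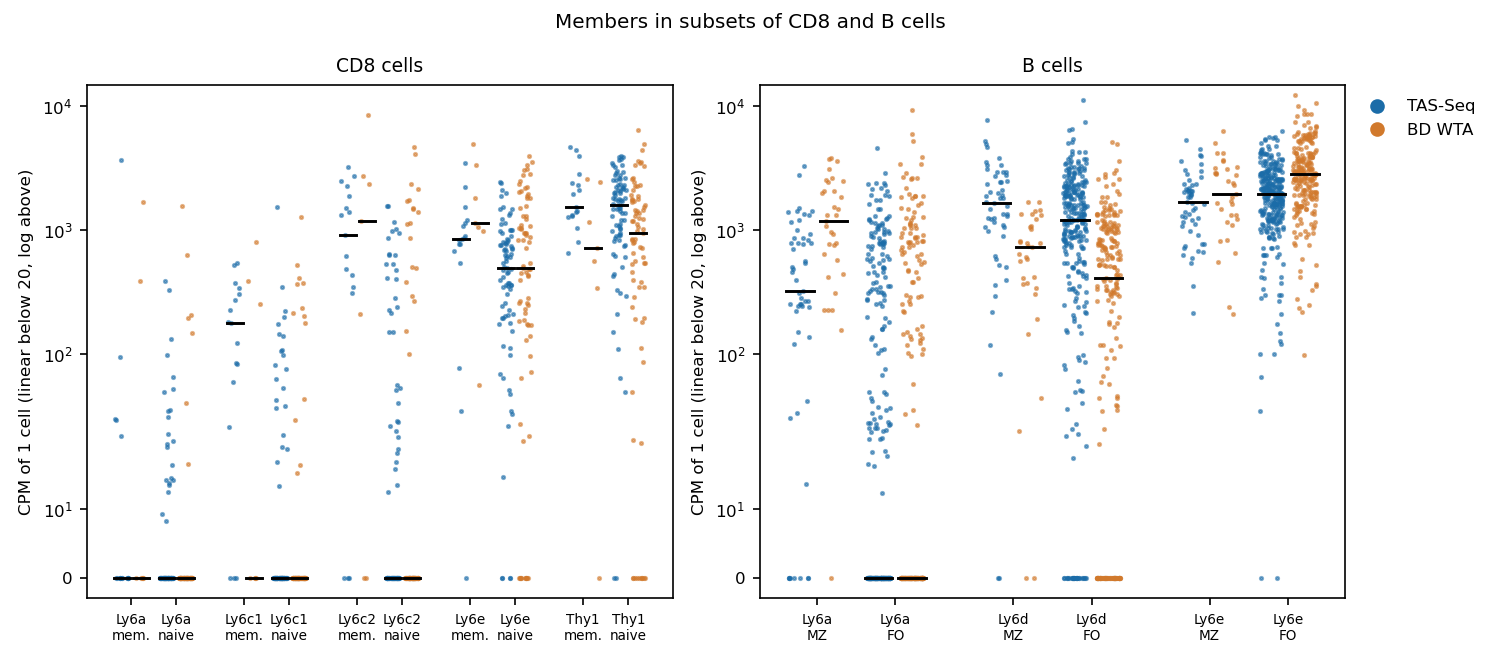
CPM in single cells (linear below 20 CPM, log above) of CD8 cells divided into memory-like (mem.) and naive-like and of B cells divided into marginal zone-like (MZ) and follicular-like (FO), for TAS-Seq (blue) and BD WTA (orange), with medians in black. Ly6a had a median above 0 in marginal zone-like cells of both libraries and a median of 0 CPM in follicular-like cells.

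Several genes were read in the same cells. In B cells with at least 5 reads of Ly6a, 90.6% (85.2-94.5%) also had 5 reads of Ly6d in TAS-Seq, against 82.2% (76.5-87.0%) of the B cells without, and in BD WTA 75.8% (68.2-82.4%) against 61.6% (54.2-68.7%). These intervals overlapped in both libraries. In CD8 cells 32 of 33 TAS-Seq and 17 of 18 BD WTA cells with Ly6c1 also had Ly6c2, against 12 of 79 and 14 of 85 without Ly6c1. These 2 genes share sequence, and the part of reads assigned to the wrong gene of the pair was not tested. In CD4 cells Ly6c1 was found in 8 of 20 cells with Ly6a and 6 of 41 without in TAS-Seq, and in 6 of 21 and 7 of 47 in BD WTA, with intervals that overlapped in both. Cells with more reads pass a fixed limit of 5 reads more often, and these pairs were not thinned.

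The myeloid class was a mixture, and Ly6c2 was held by a minority of it. Neutrophil-like cells numbered 9 in TAS-Seq and 10 in BD WTA, by S100a8, S100a9, Csf3r, Retnlg and Cxcr2, and of these 4 and 2 had at least 5 Ly6c2 reads, up to 773 and 3906 CPM. The highest BD WTA value was 7171 CPM, in a cell that reached 3 markers of no myeloid subtype, and 1 of the 2 monocyte-like or macrophage-like cells was at 1621 CPM. Both TAS-Seq cells of that kind had no Ly6c2 read. Ly6g, the antigen used to identify neutrophils, had 67 and 141 reads in all, of which 42 and 138 lay in myeloid cells. These reads came from only 3 and 6 cells of any class, and 1 cell held 61.2% and 62.4% of them.

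Plasma-like cells, those with at least 4 of 7 plasma-cell markers, were 1 in TAS-Seq and 3 in BD WTA, and all 4 read Ly6a, Ly6d and Ly6e. Ly6a was at 1156 CPM in the TAS-Seq cell and at 482, 11709 and 734 CPM in the BD WTA cells, the second of which held 3225 reads of the gene. Ly6c2 was at 1088 CPM in the TAS-Seq cell and at 1841, 1703 and 12.9 CPM in the BD WTA cells. These cells had 155371 to 275436 reads each, far above the medians of their libraries.

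At equal depth all 6 genes had the larger share of cells with a read in TAS-Seq, but for 4 of them the intervals overlapped. The shares apart were those of Ly6d and Thy1 given above. How many of all genes did so was not counted. Before thinning, barcodes had medians of 3033.5 genes in TAS-Seq and 1671.5 in BD WTA, so the count is not read as particular to these genes. Each gene was taken in the class where it was highest in both libraries at this depth. Without thinning, BD WTA was highest in CD4 cells for Ly6c1 and Thy1 and in myeloid cells for Ly6c2. Ly6a was read in 50.1% (45.0-55.3%) and 49.7% (44.0-55.4%) of B cells and Ly6e in 99.5% and 99.4%. In NK cells Ly6c1 was read in 8 of 8 cells against 6 of 15, and Ly6c2 in 8 of 8 against 10 of 15. At a limit of 10 reads 3 of the 6 genes were higher in TAS-Seq, and at 5 reads Ly6a was found in 37.1% of TAS-Seq B cells and 42.0% of BD WTA B cells.

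Among 34 other genes of the Ly6/uPAR family 22 were in the tables, and only 3 reached 10 CPM in a library: Plaur, the urokinase receptor (60.3 and 70.1 CPM), Lynx1 (33.7 and 31.1 CPM) and Cd59b, a complement inhibitor (12.4 and 32.2 CPM). Of these, 1 was at least 2-fold higher in BD WTA. Of 25 genes that build or attach the GPI anchor 19 passed the limit, with a median log2 ratio between the methods of 0.02; 1 was higher in TAS-Seq and 2 in BD WTA, against 10% and 5.92% of all genes. In CD4 against CD8 cells 1 of 17 was higher and 2 were lower, against 4.38% and 3.21% of all genes, and in B against CD8 cells 1 of 18 was higher, against 13.4%. Of 21 interferon-induced genes 20 passed, among them Ifi27l2a (357 and 183 CPM), Trim30a (175 and 140 CPM) and Ifi47 (91.6 and 163 CPM). In B against CD8 cells 1 of 20 was at least 2-fold higher and 2 lower in both libraries, against 13.4% and 5.23% of all genes, and in CD4 against CD8 cells 3 of 20 were higher, against 4.38%.

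The genes whose levels over the 10 class-by-library points were most like each of the 6 were looked up among 4979 genes, as Pearson's r of log2(CPM + 1). These points share 2 libraries and the markers that made the classes, so r is a description. Thy1 was closest to Lef1 (0.99) and Tcf7 (0.99), and Ly6d to Myo1e (0.97), Iglc3 (0.96) and Pkig (0.96). Ly6a was closest to Timm17b (0.96), Inpp5f (0.94) and Nrm (0.93), and Ly6e to Dennd5b, Arrdc3 and Pml (0.91 each). Ly6c1 was closest to Otulinl (0.97), Rnaset2b (0.94) and Iqgap2 (0.93), and Ly6c2 to Klrd1 (0.90), Ifngr1 (0.89) and Zyx (0.88).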

How the data were processed

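Spleen cells of 1 pool were measured in 2 libraries, 1 per amplification method, grouped by the sample labels. The authors deposited raw read counts for each gene in each cell, without normalization and without collapsing molecular identifiers. Their methods describe adapter trimming by cutadapt and alignment by bowtie2 (2.4.2, forward strand) against Ensembl cDNA and non-coding RNA of GRCm38. The methods also describe a background subtraction that sets low counts of a gene to 0, and whether it was applied to these tables is not stated. It would change zeros, shares of cells and signals of few reads. The submitters' processing notes name cutadapt 2.10. How a read that matches 2 genes equally well was handled is not stated, and amplification can set the size of a read count.

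Cells with at least 500 genes and at most 25% mitochondrial reads were kept. Reads were pooled per class as CPM, with a level limit of 10 CPM and a floor of 3 reads, and cells were thinned to 20000 reads with a fixed seed for shares, which left out 25 TAS-Seq and 63 BD WTA cells. Scrublet in scanpy 1.11.5 called 2 and 5 doublets, which were kept except in an alternative. TMM and median-ratio factors came from edgeR 4.0.16. The fold call was tested on simulated data with planted 4-fold changes, drawn as Poisson counts for B and CD8 cells without spread between cells. It therefore does not cover changes near 2-fold, the small classes or genes whose reads come mostly from 1 cell. Genes were named by a rule: the 6 genes, at most 4 of each list by pooled CPM, and the 3 most alike of each gene. Ly6g, Jchain and the single cells described were chosen after their values were seen. The members, lists and class limits were chosen with earlier results of these data known. Some named genes and a motif are not reported here.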

Additional observations from a re-analysis of the deposited data

Results flagged for a closer look

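The log2 ratios of Thy1 had opposite signs in the 2 libraries in 2 comparisons, all under 2-fold and with overlapping intervals in BD WTA, and the difference between the libraries was not tested, since each method has 1 library. Between CD4 and CD8 cells its log2 ratio was -0.54 in TAS-Seq and 0.024 in BD WTA, and the BD WTA value turned to -0.07 when the CPM of the cells was averaged and to -0.13 at 20000 reads per cell. Between memory-like and naive-like CD8 cells it was 0.13 in TAS-Seq and -0.13 in BD WTA, the latter from 7 memory-like cells.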

How the results depend on the processing

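Of 62 recounts under the alternatives 51 stayed within 1.5 times the main count. The main count of genes with the same highest class in both libraries was 3 of 6. It was 2 with markers at 10 reads (TAS-Seq Ly6a was then highest in myeloid cells), 4 with markers at 2 reads, with doublet calls removed or with clusters, 5 when the CPM of the cells was averaged, 6 at 20000 reads per cell (also with markers read in thinned cells) and 5 without the cell with most reads of each gene in each group. For marginal zone-like against follicular-like cells the count of 1 became 0 with markers at 2 reads, with averaged cells, without the top cells and with markers read in thinned cells. With markers at 10 reads it was 1, but of Ly6c2, since Ly6a was at 0.99 in TAS-Seq. With clusters in place of marker classes, the CD4 against CD8 count fell from 2 to 1 (Ly6c2 was lost). The log2 ratio of Ly6c1 in BD WTA then became -0.39 in place of 1.15, and the turn of the Ly6C pair was not seen in BD WTA. Between NK and CD8 cells the log2 ratio of Ly6c1 in BD WTA became -0.44 in place of 0.93. Without the top cells the NK against CD8 count fell from 2 to 1 and the log2 ratio of Ly6a between memory-like and naive-like TAS-Seq cells became -0.089. The count of genes read in more TAS-Seq cells was 3 at 10 reads, against 6. Of 404 single values 237 stayed, 165 moved and 2 reversed, and 13 changed sign. Leaving out top cells and reading markers in thinned cells were chosen after seeing the data. No paired analysis was possible because the 2 libraries are single and untested. NK and myeloid values rest on 8 to 22 cells, and a difference between cells of a few reads was not detectable at this depth.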

Other observations

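Cells that carried both T-cell and NK-cell markers, which entered no class, numbered 11 in TAS-Seq and 6 in BD WTA. Their Ly6c2 level was 1113 CPM (1037-1193) and 884 CPM (797-979), above the CD8 cells of each library, and their Thy1 level was 1445 CPM and 792 CPM. At least 5 Ly6c2 reads were found in 5 of 11 and 2 of 6 of them. Ly6e was at 1352 and 1823 CPM, while Ly6a had 2 reads in TAS-Seq and 22 reads, all from 1 cell, in BD WTA.

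Cells with markers of several lists held 1561 CPM of Ly6a in BD WTA, and 3225 of the 5202 reads came from 1 plasma-like cell. In TAS-Seq the same kind of cells held 365 CPM of Ly6a and 891 CPM of Ly6c2.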
